A study of Homo sapiens with 12 samples.

Results

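Nucleotide excision repair was followed through 10 of its core genes, XPA, XPC, DDB2, ERCC1, ERCC2, ERCC3, ERCC4, ERCC5, ERCC6 and ERCC8, out of 60649 genes counted in each library. They were taken by symbol from the count files, and all 10 were found. RNA came from SBC3, an established human small cell lung cancer line, grown as spheroids (clumps of cells in three-dimensional culture). The 4 groups, each of 3 libraries, were untreated control spheroids, spheroids given teriflunomide, spheroids given lurbinectedin, and spheroids given both drugs, called the combination here. Teriflunomide inhibits DHODH, an enzyme of pyrimidine synthesis, and lurbinectedin binds guanines in the minor groove of DNA and forms bulky adducts. Every group is the same line, so no genotype differed between groups, and the labels give neither dose nor exposure time. The labels do not say that the 3 libraries of a group came from separate cultures, so p-values measure the spread between these libraries, which may be technical.

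Nucleotide excision repair removes bulky lesions from DNA by cutting out a short piece of the damaged strand and copying the other strand to fill the gap. Lesions anywhere in the genome are found by the XPC complex, helped by the DDB2 and DDB1 ubiquitin ligase, whereas lesions that stall RNA polymerase II are found through ERCC6 (CSB) and ERCC8 (CSA). Both routes then bring in TFIIH, whose helicases ERCC2 (XPD) and ERCC3 (XPB) open the helix, and XPA, which checks the lesion. The nucleases ERCC1-ERCC4 (XPF) and ERCC5 (XPG) cut on either side, and PCNA, replication factor C and DNA polymerases fill the gap. Cells with working transcription-coupled repair are known to be more sensitive to drugs of the lurbinectedin family than cells that lack it.

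DDB2 and XPC, the damage sensors of the genome-wide route, had the largest rises among the 10 genes, and the sequence around their start sites is shown for that reason. The promoter table (RefSeq, GRCh38.p14) held windows of 300 bases, 250 before and 50 after each start, and gave 14 windows for the 10 genes. They were searched on both strands for the p53 half-site consensus, since both genes are textbook targets of p53. Capitals mark half-sites. The stretches below run from 34 bases before to 26 bases after the start, 5′ to 3′ on the strand of the gene, at chr11:47214940-47214999 (plus strand) for DDB2 and chr3:14178576-14178635 (minus strand) for XPC.
DDB2: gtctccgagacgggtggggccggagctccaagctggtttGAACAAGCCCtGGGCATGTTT
XPC: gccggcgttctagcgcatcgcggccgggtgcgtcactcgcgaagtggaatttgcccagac
In the window shown, the 2 half-sites of DDB2 began at bases 6 and 17 counted from the start site, not from the first base printed. They are 1 base apart. That window was picked because it holds the matches. Another DDB2 window, at chr11:47214204-47214503, had 0 half-sites and contains the first annotated base of the gene in the files (47214465). DDB2 was the only 1 of the 10 genes with a half-site in its windows, against 6.63% of the 35116 windows in the table. A pair of half-sites at most 13 bases apart, a search added after this match was seen, occurred in 10 of the 35116 windows (0.0285%). The E2F motif TTCGCGC was in the window of ERCC3 alone and TTGGCGC in that of ERCC1 alone, against 2.24% and 3.04% of all windows. CCAAT was present for 4 genes, DDB2 (in the window not shown), ERCC8, ERCC2 and ERCC1, against 34.6% of all windows, and TATAAA for 0, against 11.5%. For each motif a gene counts if any of its windows matches, whereas the shares are per window, so these are not in like units. GC content of the 14 windows ran from 52.3% to 67.0%, against a median of 58.7% over the table. These matches are descriptions of the letters and not of bound sites.

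The libraries held 23206414 to 33222162 counted reads, and replicates correlated at r = 0.977 to 0.995 across genes within groups. Reads from the mitochondrial genome took 6.26% to 7.17% of the control libraries, 8.42%, 8.43% and 22.6% of the teriflunomide libraries, 13.8% to 17.0% with lurbinectedin and 14.6%, 24.9% and 13.1% in the combination. Teriflunomide replicate 3 and combination replicate 2 therefore stood apart, and several of the results that rest on them are given with and without them. Of 8 small cell and neuroendocrine markers, 5 were under 1 CPM (reads of a gene per 1000000 counted reads, scaled as below) in every library, with INSM1 at 0 throughout, and the other 3 differed in direction. YAP1 was at 235 to 259 CPM in the controls, 60.1 to 72.1 with lurbinectedin and 77.5 to 128 in the combination, and NEUROD1 at 3.67 to 4.29, 1.501 to 1.72 and 2.04 to 2.97. SYP was at 15.97 to 17.5 in the controls, 29.8 to 32.5 with lurbinectedin and 32.2 to 36.1 in the combination. Among 4 epithelial markers KRT8 was at 236 to 252 CPM in the controls, 399.6 to 433 with lurbinectedin and 373 to 443 in the combination, and the other 3, EPCAM, KRT18 and CDH1, were under 1. The leukocyte and endothelial markers were also under 1 in every library. The fibroblast collagens COL1A1 and COL1A2 summed to 518 to 548 in the controls, 465 to 484 with teriflunomide, 186 to 220 with lurbinectedin and 198 to 226 in the combination. The part of these markers in the results below was not tested.

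After lurbinectedin alone, DDB2, XPC and the TFIIH helicase ERCC3 rose, ERCC8 and the nuclease subunit ERCC4 fell, and the other 5 genes did not pass the test. Levels in CPM are scaled by edgeR's TMM factors, which correct each library for its composition. Each test was edgeR's quasi-likelihood test on the counts of all 16683 genes that passed a filter on low counts, with Benjamini-Hochberg adjustment over those genes, and a gene is called at an adjusted p under 0.05. All 10 repair genes passed that filter. The 5 calls (3 higher, 2 lower) among 10 genes stood against 71.6% of all genes tested called in this contrast (36% higher, 35.7% lower), so the count itself is below the background. The control and lurbinectedin libraries did not overlap for 7 of the 10, against 83.2% of all genes tested. Their median log2 fold change was 0.07, against 0.05 over all genes tested. In bulk RNA, fewer cells of a type and less RNA per cell cannot be told apart.

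**Figure D1:**
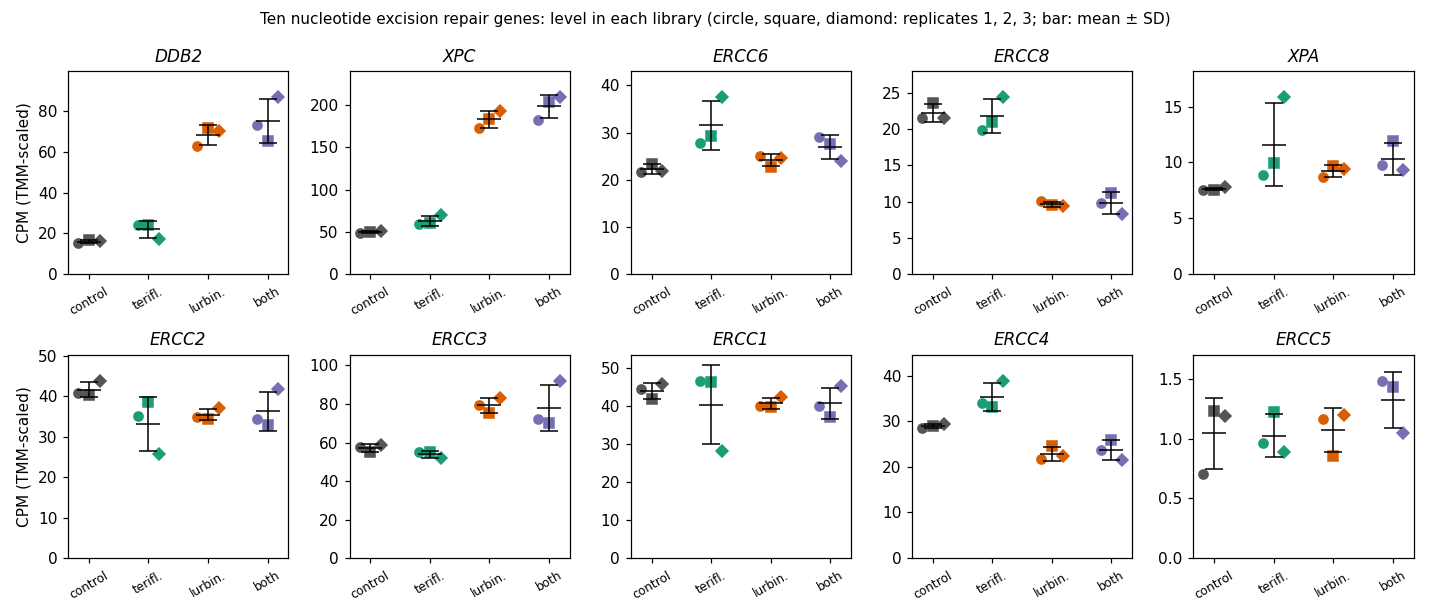
Level of each repair gene (vertical axis, CPM scaled by TMM, starting at 0) in the 12 libraries, by group (horizontal axis: control, teriflunomide, lurbinectedin, both drugs). Points are libraries and bars the mean ± SD; DDB2 and XPC sit far above control, and ERCC8 below it, in all 6 libraries given lurbinectedin.

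DDB2 (ENSG00000134574.12, chromosome 11, 47214465 to 47239217, plus strand) encodes the subunit that binds the lesion in the DDB1-DDB2 complex. Its level was 15.2, 16.6 and 16.1 CPM in the control libraries and 62.7, 71.6 and 70.0 CPM with lurbinectedin. It was 73.3, 65.2 and 86.7 CPM in the combination and 24.2, 24.4 and 17.3 CPM with teriflunomide. Every library given lurbinectedin lay above every library without it, and the lowest of them was above 60 CPM. The log2 fold change after lurbinectedin was 2.10 (SE 0.15, 95% interval 1.77 to 2.42, adjusted p = 2.28e-08, edgeR), a 4.27-fold rise. In the combination it was 2.23 (SE 0.15, adjusted p = 1.62e-08, edgeR), a 4.71-fold rise over the same controls.

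XPC (ENSG00000154767.15, chromosome 3, 14145147 to 14178621, minus strand) encodes the protein that recognises helix distortion and starts genome-wide repair. The controls stood at 48.5, 50.1 and 51.6 CPM, and the lurbinectedin libraries at 173, 184 and 193 CPM. Combination libraries had 183, 204 and 209 CPM, and teriflunomide libraries 58.9, 61.0 and 69.8 CPM. No library given lurbinectedin overlapped any library without it. XPC rose 3.66-fold after lurbinectedin (log2 1.87, SE 0.10, 95% interval 1.66 to 2.09, adjusted p = 1.33e-09, edgeR). It rose 3.97-fold in the combination (log2 1.99, adjusted p = 1.02e-09, edgeR). An antisense gene, XPC-AS1, covers 24.6% of XPC's exon bases but had 115 reads over all 12 libraries, against 40832 for XPC.

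Of the 2 recognition genes of the transcription-coupled route, ERCC8 was called and ERCC6 was not; the difference between genes was not tested. ERCC8 (ENSG00000049167.16, chromosome 5, 60866454 to 60945073, minus strand), the substrate receptor of the CSA ubiquitin ligase, had 21.4, 23.6 and 21.5 CPM in the controls. With lurbinectedin it had 10.02, 9.53 and 9.37 CPM, and in the combination 9.84, 11.2 and 8.23 CPM. Teriflunomide libraries, at 19.9, 20.9 and 24.3 CPM, overlapped the controls. Both groups given lurbinectedin lay below every other library. ERCC8 fell by 1.20 on the log2 scale after lurbinectedin (SE 0.13, adjusted p = 2.08e-06, edgeR) and fell by 1.19 in the combination (SE 0.13, adjusted p = 2.69e-06, edgeR).

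ERCC6 (ENSG00000225830.16, chromosome 10, 49454168 to 49539538, minus strand), the ATPase that meets the stalled polymerase, was at 21.6, 23.5 and 21.8 CPM in the controls and at 25.1, 22.8 and 24.6 CPM with lurbinectedin. The groups overlapped, with a log2 fold change of 0.12 (95% interval -0.16 to 0.39, adjusted p = 0.434, edgeR). Scaled by total reads alone, that value was -0.12, so no direction is given. In the combination ERCC6 had 29.1, 27.6 and 24.0 CPM, all above the controls, and did not pass the test (log2 0.27, adjusted p = 0.0776, edgeR); without teriflunomide replicate 3 the call was made (0.26, adjusted p = 0.0192, edgeR).

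XPA (ENSG00000136936.11, chromosome 9, 97674909 to 97697340, minus strand), the scaffold that verifies the lesion, had 7.57, 7.55 and 7.76 CPM in the controls and 8.67, 9.73 and 9.41 CPM with lurbinectedin. The combination gave 9.73, 11.9 and 9.31 CPM. Both sets of treated libraries were above all controls, but the log2 values of 0.28 (adjusted p = 0.198) and 0.43 (adjusted p = 0.056) did not pass edgeR's test. The lurbinectedin value passed when only those 2 groups were fitted (0.27, adjusted p = 0.0163, edgeR) and without teriflunomide replicate 3 and combination replicate 2 (0.27, adjusted p = 0.02, edgeR). Without teriflunomide replicate 3 the combination value was 0.42 and passed (adjusted p = 0.00389, edgeR).

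Of the TFIIH helicases, ERCC3 was called and ERCC2 was not. ERCC3 (ENSG00000163161.14, chromosome 2, 127257290 to 127294166, minus strand) was at 57.5, 54.9 and 59.0 CPM in the controls, 79.3, 75.4 and 83.2 CPM with lurbinectedin and 72.0, 70.2 and 91.9 CPM in the combination. All 6 libraries given lurbinectedin exceeded all others. Its rise was 1.39-fold after lurbinectedin (log2 0.47, SE 0.11, adjusted p = 0.00165, edgeR) and 1.37-fold in the combination (log2 0.45, SE 0.11, adjusted p = 0.00256, edgeR). Scaled by total reads alone, the values were 0.24 (adjusted p = 0.245) and 0.30 (adjusted p = 0.157) in edgeR, and neither call was made. ERCC2 (ENSG00000104884.17, chromosome 19, 45349837 to 45370918, minus strand) went from 40.8, 40.4 and 43.8 CPM in the controls to 34.9, 34.5 and 37.1 CPM with lurbinectedin. Those groups did not overlap, yet the log2 difference of -0.23 (95% interval -0.54 to 0.08, adjusted p = 0.165, edgeR) was not called. Without teriflunomide replicate 3, whose library enters the shared estimate of spread, ERCC2 was called lower (-0.25, adjusted p = 0.0265, edgeR). Its 34.4, 32.9 and 41.8 CPM in the combination overlapped the controls.

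Among the nucleases, ERCC4 (ENSG00000175595.16, chromosome 16, 13920138 to 13952348, plus strand), the catalytic partner of ERCC1, had 28.5, 29 and 29.5 CPM in the controls. It had 21.6, 24.6 and 22.5 CPM with lurbinectedin and 23.7, 25.8 and 21.5 CPM in the combination, below all controls in both. ERCC4 fell by 0.34 on the log2 scale after lurbinectedin (SE 0.11, adjusted p = 0.0145, edgeR) and fell by 0.29 in the combination (SE 0.11, adjusted p = 0.0308, edgeR). The combination call was lost when any 1 control library, combination replicate 1 or combination replicate 3 was left out, with adjusted p-values of 0.0541 to 0.103 (edgeR). It was also lost with no filter (0.066), with a filter at 1 CPM (0.0595) and with the replicate number as a block (0.0534). ERCC1 (ENSG00000012061.16, chromosome 19, 45407334 to 45478828, minus strand) overlapped the controls, which had 44.4, 41.7 and 45.6 CPM, in both groups: 39.9, 39.8 and 42.4 CPM with lurbinectedin and 39.9, 36.98 and 45.1 CPM in the combination. Its log2 fold change was -0.11 after lurbinectedin (95% interval -0.46 to 0.24, adjusted p = 0.553, edgeR). Of its exon bases, 28.6% are shared with POLR1G on the other strand, and since the sources used here do not state whether counting used strand, reads of the 2 genes there may not be told apart.

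ERCC5 (ENSG00000134899.24, chromosome 13, 102845831 to 102875995, plus strand), the other nuclease, was barely counted, with 385 reads in all 12 libraries. Its levels were 0.703, 1.24 and 1.19 CPM in the controls, 1.16, 0.859 and 1.20 CPM with lurbinectedin and 1.48, 1.43 and 1.052 CPM in the combination. The read-through gene BIVM-ERCC5 shares 3641 of its exon bases (33.0%) on the same strand and had 0 reads in every library. Reads that fall in shared exons can be dropped or assigned by the counting rule, which is not stated, and its part in the low level was not tested. The log2 fold change after lurbinectedin of 0.03 had a 95% interval of -0.55 to 0.61, and no difference was detectable at this depth.

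Ordered by CPM per kilobase of the exon length in the files, the control libraries had XPC highest at 10.8 ± 0.330 (SD, n = 3), then ERCC1 at 7.88 ± 0.360, ERCC3 at 6.79 ± 0.243, ERCC2 at 6.003 ± 0.270, XPA at 4.20 ± 0.0645 and DDB2 at 3.29 ± 0.143. The lowest were ERCC4 at 1.83 ± 0.0294, ERCC6 at 0.965 ± 0.0433, ERCC8 at 0.838 ± 0.0463 and ERCC5 at 0.0946 ± 0.0268. No neighbours in this order came within the sum of their SDs. With lurbinectedin DDB2 moved from place 6 to place 2, at 14.1 ± 0.977, behind XPC at 39.5 ± 2.20. The exon length sums all annotated exons, 26458 bases for ERCC8, and the order depends on it. Per kilobase of the principal transcript (2017 bases for ERCC8), ERCC3 led the controls at 20.8 ± 0.742 and ERCC8 stood at place 4 with 10.99 ± 0.608, next to ERCC1 at 11.5 ± 0.524, a gap within their SDs.

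Fold changes after lurbinectedin went with the genomic span of genes across the whole table, and the repair genes are set against genes of like span. Nuclear genes were cut into 5 equal classes by span. In the class of 16.3 to 35.9 kb, which holds DDB2, XPC, XPA, ERCC2, ERCC4 and ERCC5, the median log2 fold change was 0.28, with quartiles of -0.29 and 0.83. DDB2 at 2.10 (24.8 kb) and XPC at 1.87 (33.5 kb) were above the upper quartile, and ERCC4 at -0.34 was below the lower. In the next class, 35.9 to 82.9 kb, the median was -0.36 with quartiles of -0.99 and 0.26. ERCC3 at 0.47 (36.9 kb) lay above and ERCC8 at -1.20 (78.6 kb) below those quartiles, with ERCC1 at -0.11 between them. ERCC3 and ERCC8 lie near the edges of this class, so their placement depends on the cut. The 0.47 of ERCC3 is within the quartiles of the class below, and the -1.20 of ERCC8 within those of the class above. Genes over 82.9 kb had a median of -1.86 (quartiles -3.12 and -0.91) and 83.7% of them were called lower. ERCC6, at 85.4 kb, is the only repair gene there, near its lower edge, and its 0.12 was above the upper quartile.

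**Figure D2:**
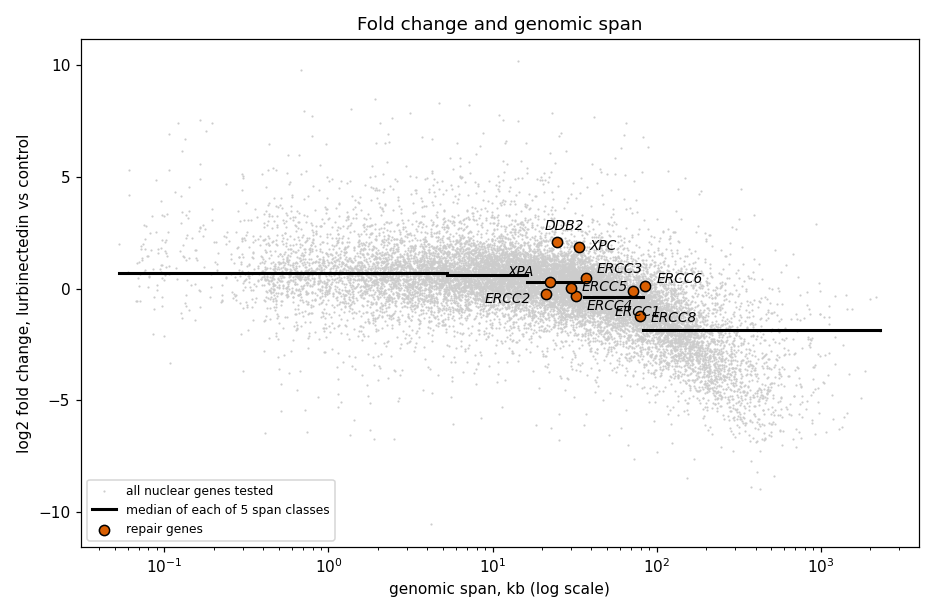
Log2 fold change of lurbinectedin against control (vertical axis) by genomic span in kb (horizontal axis, log scale) for all nuclear genes tested (grey points) and the 10 repair genes (orange points); black lines are the median of each of 5 span classes. The medians go from 0.69 in the shortest class to -1.86 in the longest, and DDB2 and XPC stand well above theirs.

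Adding teriflunomide to lurbinectedin left no repair gene called. The combination against control gave the same count as lurbinectedin, 5 of 10 (3 higher, 2 lower), against 68.4% of all genes tested (34.1% higher, 34.4% lower); the 2 comparisons share the control libraries. Combination and control libraries did not overlap for 7 of the 10 genes, against 77.2% of all genes tested. Combination against lurbinectedin called 0 of 10, against 0% of all genes tested, with 0 of 10 at an unadjusted p under 0.05 in edgeR and 0 called by DESeq2. Without teriflunomide replicate 3 it still called 0 of 10, against 12.1% of all genes tested in that fit. DDB2 differed by 0.14 on the log2 scale (95% interval -0.17 to 0.44), XPC by 0.12 (-0.09 to 0.32), ERCC6 by 0.15 (-0.12 to 0.43) and ERCC8 by 0.01 (-0.28 to 0.31). The groups overlapped for all 10 genes, against 23.7% of all genes tested that did not overlap. These intervals leave room for modest differences either way and do not show that the treatments act alike. The interaction, the change from teriflunomide in the presence of lurbinectedin minus that in its absence, called 0 of 10 against 0.258% of all genes tested. For DDB2 it was -0.32 (95% interval -0.76 to 0.12, adjusted p = 0.63, edgeR) and for ERCC6 -0.35 (-0.74 to 0.05, adjusted p = 0.547). Without teriflunomide replicate 3 these were -0.46 (adjusted p = 0.0949, edgeR) and -0.20 (adjusted p = 0.469, edgeR). No unadjusted interaction p among the 10 genes was under 0.05, and DESeq2 called 0.

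Against teriflunomide, the combination called 5 of 10 genes (3 higher, 2 lower), against 70.9% of all genes tested (35.2% higher, 35.8% lower). DDB2 rose 3.42-fold (log2 1.77, adjusted p = 1.22e-07, edgeR), XPC 3.14-fold (log2 1.65, adjusted p = 5.2e-09, edgeR) and ERCC3 1.45-fold (log2 0.53, adjusted p = 0.000693, edgeR). ERCC8 fell by 1.16 (adjusted p = 3.19e-06, edgeR) and ERCC4 fell by 0.58 (adjusted p = 0.000369, edgeR). The fall of ERCC4 had no overlap between the groups, with teriflunomide libraries at 33.9, 33.2 and 38.8 CPM.

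**Figure D3:**
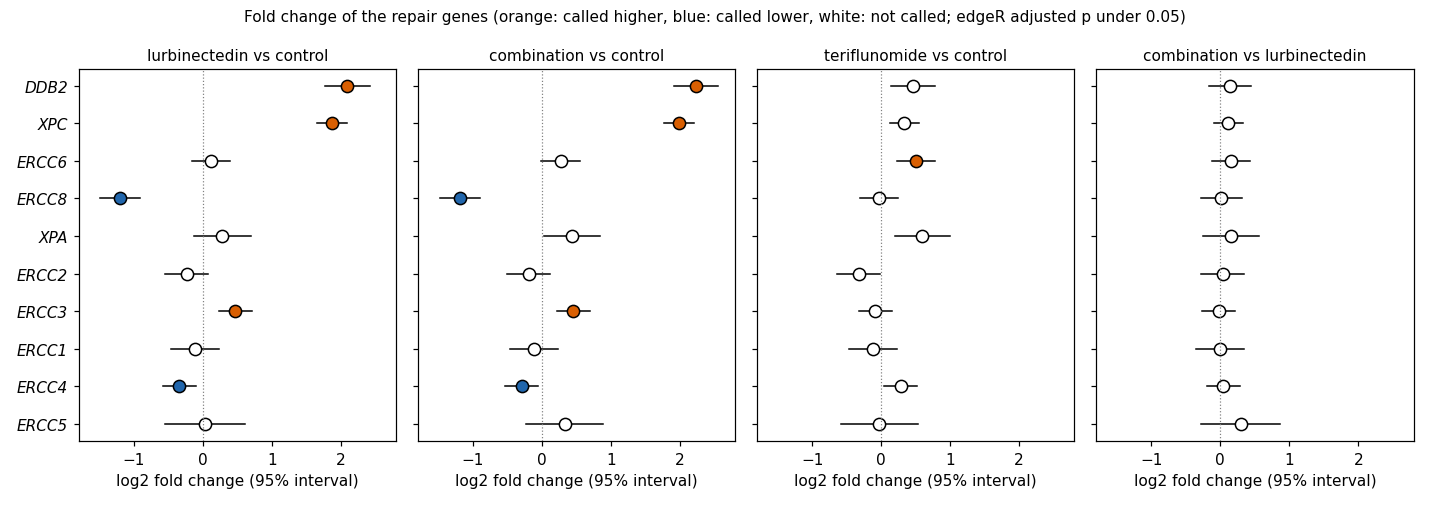
Log2 fold change of each repair gene (points) with its 95% interval (lines) in 4 comparisons; orange points were called higher and blue points lower by edgeR, white points were not called. DDB2, XPC, ERCC3, ERCC8 and ERCC4 are coloured in the first 2 panels, ERCC6 alone in the third and no gene in the last.

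After teriflunomide alone, ERCC6 was the only repair gene called in the main edgeR fit. That was 1 of 10 genes, against 6.01% of all genes tested, with 3.88% higher. ERCC6 was at 27.9, 29.4 and 37.5 CPM against 21.6, 23.5 and 21.8 CPM in the controls (log2 0.50, SE 0.13, adjusted p = 0.0379, edgeR). The 2 groups did not overlap for 6 of the 10 genes, against 36.8% of all genes tested. The ERCC6 call was lost without any 1 of the control or lurbinectedin libraries or teriflunomide replicate 2 (adjusted p = 0.0536 to 0.153, edgeR), and was kept without teriflunomide replicate 3 (0.36, adjusted p = 0.0402, edgeR). DDB2 was higher than every control in all 3 libraries, at 24.2, 24.4 and 17.3 CPM, with a log2 value of 0.46 that was not called (adjusted p = 0.0767, edgeR). Teriflunomide replicate 3 was the lowest of them, and without it DDB2 was called (0.60, adjusted p = 0.00302, edgeR). XPC had a log2 value of 0.34 (adjusted p = 0.0575, edgeR) with every teriflunomide library above every control. Without replicate 3 the XPC value was 0.26 (adjusted p = 0.0608, edgeR). DESeq2 called DDB2 (adjusted p = 0.0432), XPC (0.0123) and XPA (0.0327) besides ERCC6, 4 of 10 against 12.7% of all genes in that fit. Of 22 alternative fits, XPC was called in 4 and DDB2 and XPA in 3 each, and ERCC6 kept its call in 11.

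Teriflunomide replicate 3 also held the extreme value for XPA, ERCC2 and ERCC1. XPA was at 8.90, 9.99 and 15.8 CPM with teriflunomide (log2 0.60, adjusted p = 0.0746, edgeR), and at 0.31 without replicate 3. ERCC2 had 35.2, 38.6 and 25.7 CPM (log2 -0.33, adjusted p = 0.179, edgeR), with -0.18 without replicate 3. ERCC1 had 46.5, 46.2 and 28.3 CPM, a log2 value of -0.12 that was 0.08 without replicate 3. ERCC4 had a log2 value of 0.28 (adjusted p = 0.139, edgeR), and 0.21 without replicate 3, its highest library. ERCC3, at 54.9, 55.1 and 51.9 CPM, had a value of -0.08, and ERCC5, at 0.967, 1.23 and 0.885 CPM, had -0.03.

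The wider pathway was followed through 42 further genes, of which 41 were tested; GTF2H4, a TFIIH subunit, had only 2 to 14 reads a library. After lurbinectedin 12 rose and 15 fell, 27 of 41 against the background of 71.6%, with a median log2 fold change of -0.09 against 0.05 over all genes. Scaled by total reads alone, 7 rose and 18 fell, beside 25.9% and 40.2% of all genes. In the genome-wide recognition group of 7 genes, 2 rose and 4 fell, beside 36% and 35.7% of all genes tested. The ligase scaffold CUL4B fell from a mean of 88.6 to 31.0 CPM (-1.52). CUL4B spans 98.2 kb, in the span class with a median of -1.86. RAD23B, a stabilising partner of XPC, fell from 316 to 217 CPM (-0.54), and DDB1, the partner of DDB2, was not called (501 and 525 CPM, 0.07). All 6 genes of the transcription-coupled group were called (4 higher, 2 lower), beside 71.6% of all genes tested. With so few genes this count is not read as a trait of that route. XAB2, which binds XPA and is also a splicing factor, rose from 46.2 to 137 CPM (1.57), with ELOF1 (0.89), HMGN1 (0.39) and STK19 (0.91). USP7, the deubiquitinase that protects CSB, fell from 210 to 133 CPM (-0.67), and UVSSA, which brings USP7 to the polymerase, fell as well (-0.49). USP7 spans 83.2 kb, at the lower edge of the class with a median of -1.86.

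Of the other 7 TFIIH subunits tested, 0 rose and 3 fell, a smaller share called than the 71.6% of all genes (36% higher, 35.7% lower). MNAT1, the assembly factor of the CDK7 kinase module, was at 19.3, 22.2 and 18.4 CPM in the controls and at 1.94, 2.15 and 2.22 CPM with lurbinectedin, a 9.46-fold fall (log2 -3.24, adjusted p = 1.7e-08, edgeR). Its span is 235 kb, in the span class with a median of -1.86. CCNH, the cyclin of that module, fell (-1.06), while CDK7 itself was at -0.00. GTF2H2 fell (-0.80), but near-identical copies of this gene make its counts uncertain. Among the RPA subunits that coat single-stranded DNA, RPA2 rose from 74.4 to 132 CPM (0.83), RPA3 fell from 35.7 to 25.1 CPM (-0.51) and RPA1 was not called.

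Of the gap-filling genes, 5 of 18 were higher and 5 lower. That is 55.6% called, below the 71.6% of all genes tested, which also split about evenly (36% higher, 35.7% lower). PCNA, the sliding clamp, had 164, 172 and 160 CPM in the controls and 445, 421 and 428 CPM with lurbinectedin, a 2.61-fold rise (log2 1.38, adjusted p = 3.82e-09, edgeR). PCNA spans 11.7 kb, in the span class with a median of 0.62. POLE3 (1.34), RFC5 (0.67), RFC2 (0.48) and POLD2 (0.44) rose too. POLK, a translesion polymerase also used in repair synthesis, fell from 28.5 to 8.04 CPM (-1.82), with RFC1 (-0.91), POLE2 (-0.90), XRCC1 (-0.37) and POLD3 (-0.33). POLK spans 89.4 kb, in the span class with a median of -1.86.

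In the combination, 10 of the 41 wider genes rose and 15 fell against control, beside 34.1% and 34.4% of all genes tested. Scaled by total reads alone, 6 rose and 17 fell, beside 25.7% and 36.9% of all genes. Combination against lurbinectedin called 0 of 41, against 0% of all genes tested. In edgeR 10 were at an unadjusted p under 0.05. The share of all genes at that unadjusted threshold was not taken, so the 10 is not read as a result. DESeq2 called 1, against 4.47% of all genes in that fit. Without teriflunomide replicate 3 the edgeR count was 7, against 12.1% of all genes tested in that fit. Without that library and combination replicate 2 it was 15, against 21.5%. Without combination replicate 2 alone it was 1, against 1.52%. Teriflunomide alone called 4 of 41, beside 6.01% of all genes tested: UVSSA fell from 30.7 to 20.3 CPM (log2 -0.60, adjusted p = 0.00551, edgeR), POLE and POLD2 fell by 0.48 and 0.46, and GTF2H5, the smallest TFIIH subunit, rose from 15.8 to 22.7 CPM (0.52, adjusted p = 0.0155, edgeR). That count ran from 1 to 5 as single libraries were left out, with 1 call when any 1 control library was left out (1.26% to 1.54% of all genes in those fits). Teriflunomide replicate 3 was the lowest of its group for POLE (189, 188 and 152 CPM) and POLD2 (101, 94.8 and 68.9 CPM). The values of these 2 genes without it are not given here. The interaction of GTF2H5 was -0.80 (adjusted p = 0.0562, edgeR). Of 41 interactions 0 were called, against 0.258% of all genes tested, with 5 at an unadjusted p under 0.05 in edgeR. The share of all genes at that unadjusted threshold was not taken here either. DESeq2 called 2, against 1.6% of all genes in that fit.

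Ratios between the reads of genes whose proteins work as pairs describe the RNA balance within a library and do not depend on scaling. No protein was measured. The pairs were chosen after the values were seen, so these ratios are given with no test. The log2 ratio of DDB2 to DDB1 reads was -4.98 ± 0.06 (SD, n = 3) in the controls, -4.27 ± 0.08 with teriflunomide, -2.95 ± 0.15 with lurbinectedin and -2.59 ± 0.11 in the combination. The 4 groups did not overlap in this ratio, and teriflunomide replicate 3, at -4.35, stood with its group. ERCC6 to ERCC8 went from 0.01 ± 0.02 in the controls to 0.53 ± 0.08 with teriflunomide, 1.33 ± 0.07 with lurbinectedin and 1.47 ± 0.15 in the combination. The latter 2 groups overlapped and the rest did not.

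XPC to RAD23B was -2.66 ± 0.07 in the controls, -2.23 ± 0.07 with teriflunomide, -0.25 ± 0.14 with lurbinectedin and -0.13 ± 0.31 in the combination. ERCC3 to ERCC2 stood at 0.46 ± 0.03, 0.72 ± 0.26, 1.16 ± 0.03 and 1.10 ± 0.04 in the same order, with teriflunomide replicate 3 at 1.01 against 0.64 and 0.51 for the other 2. ERCC1 to ERCC4, the 2 subunits of 1 nuclease, stood at 0.60 ± 0.06 in the controls, 0.83 ± 0.12 with lurbinectedin and 0.78 ± 0.28 in the combination. It was 0.46, 0.48 and -0.46 in the teriflunomide libraries. The lurbinectedin group lay above the controls and the teriflunomide group below them, while the combination overlapped the controls. CDK7 to MNAT1 went from 0.36 ± 0.16 in the controls to 3.61 ± 0.13 with lurbinectedin and 3.18 ± 0.27 in the combination.

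**Figure D4:**
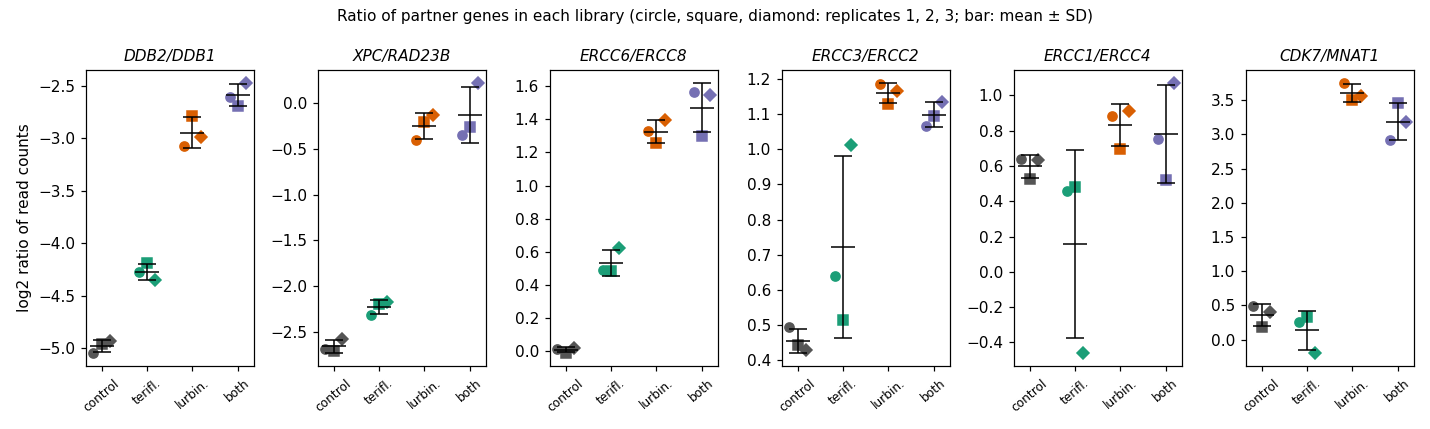
Log2 ratio of read counts (vertical axis) of 6 pairs of partner genes in each library, by group, with mean ± SD. The DDB2 to DDB1 ratio separates all 4 groups, from -4.98 in the controls to -2.59 in the combination, while for ERCC1 to ERCC4 the lurbinectedin libraries lie above the controls, the teriflunomide libraries below them and the combination libraries on either side.

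For the 3 repair genes with the widest range of group means, the genes most like them over the 12 libraries were sought among 10435 genes with a mean of at least 5 CPM, by Pearson's r of log2 CPM, as a description of libraries that share treatments. DDB2 was followed most closely by EPS8L2 (r = 0.997) and GDF15 (0.996), XPC by PRKAB2 (0.998), and ERCC8 by BICRAL (0.993) and RNASEH2B (0.993).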

How the data were processed

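Polyadenylated RNA was sequenced from 12 libraries. The submitters' processing notes name fastp 0.23.2, STAR 2.7.9, Subread featureCounts and the build hg38. The deposited values are raw read counts per gene, unnormalised, for 60649 genes. How strand and overlapping genes were handled is not given in the sources used here. Of the identifiers, 60507 (99.8%) matched a symbol.

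Counts were tested in edgeR 4.0.16 (R 4.3.3) by the quasi-likelihood test, with TMM scaling, filterByExpr, 1 mean per group over all 12 libraries and Benjamini-Hochberg adjustment within each of 6 contrasts. The biological coefficient of variation was 14.5%. Read totals differed by up to 1.43 times. The fit was tested on simulated counts in which few genes changed, as many up as down. That test cannot speak for the scaling where most genes change. Alternatives were DESeq2 1.42.0, other scalings, filters, thresholds, left-out libraries and a replicate block. Principal transcripts came from GENCODE 29 and promoter windows from RefSeq.

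The 10 genes, the wider list and the markers were chosen with earlier results of these data known. All 10 genes are named; of the wider list, the largest called rise and fall per role with at least 5 CPM, and others after their values were seen. ERCC6-PGBD3 was not analysed here, and some genes that these rules name are not reported here.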

Additional observations from a re-analysis of the deposited data

How the results depend on the processing

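The lurbinectedin rises of DDB2 and XPC and the fall of ERCC8 kept their call under every alternative run, alone and in the combination. Against 1.5-fold by TREAT, 3 repair genes each were called in lurbinectedin, in the combination and in combination against teriflunomide, with 11, 9 and 11 of the wider list, and 0 of either list with teriflunomide. In teriflunomide against control, 1 repair gene and 4 wider genes were called, against 6.01% of all genes tested. Repair genes numbered 0 at an adjusted p under 0.01, with library size only (1.59% of all genes) or with only the groups compared (1.83%). They numbered 2 with a filter at 1 CPM (7.51% of all genes) and 4 with DESeq2 (12.7%). Wider genes numbered 1, 0 and 1 at the first 3 of these settings. The shares of all genes called by TREAT and at an adjusted p under 0.01 were not taken. Counts of repair or wider genes at those settings therefore have no background here. With only the groups compared, 7 repair genes were called with lurbinectedin and 7 in the combination, against 83.8% and 73.9% of all genes in those fits. DESeq2 called 1 wider gene in combination against lurbinectedin (4.47% of all genes) and 2 in the interaction (1.6% of all genes).

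An alternative chosen after seeing the data left out teriflunomide replicate 3 and combination replicate 2. It called 3 repair genes with teriflunomide (16.3% of all genes), 7 with lurbinectedin (79.6%) and 7 in the combination (74.2%). It called 15 wider genes in combination against lurbinectedin (21.5% of all genes) and 9 in the interaction (10.9%). Leaving out single libraries gave 0 to 3 repair and 1 to 5 wider genes with teriflunomide, 5 to 6 and 25 to 35 with lurbinectedin, 4 to 7 and 23 to 34 in the combination, 0 and 0 to 7 in combination against lurbinectedin, 5 and 27 to 31 in combination against teriflunomide, and 0 and 0 to 3 in the interaction. In the same fits, the share of all genes called ran from 1.26% to 9.11% with teriflunomide and 65.1% to 77.2% with lurbinectedin. It ran from 61.8% to 74.9% in the combination and 0% to 12.1% in combination against lurbinectedin. For combination against teriflunomide it was 66.9% to 73.2%, and for the interaction 0.0117% to 3.61%. The cause of these changes was not tested.

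No pairing by replicate number was seen. Correlations of deviations between same-numbered libraries ran from -0.40 to 0.14, 1 of 18 pairs was over 0.1, and 0 of 12 libraries correlated best with its own number. The -0.40 was between teriflunomide replicate 3 and combination replicate 3. The deviations are from means of 3 libraries, and teriflunomide replicate 3 and combination replicate 2 stood apart, so this check cannot exclude pairing. With the replicate number as a block, 0 repair and 2 wider genes were called with teriflunomide (2.49% of all genes). In the combination 4 repair genes were called (66.2% of all genes), and ERCC4 was lost (adjusted p = 0.0534, edgeR).

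Scaling by library size alone moved the overall median log2 fold change by -0.23 in lurbinectedin, -0.17 in the combination and 0.14 in the interaction. Of 60 repair gene fold changes, 16 changed sign under some alternative, none of them called and none over 0.17 in size. ERCC1 in combination against lurbinectedin, at -0.00, was 0.0113 with DESeq2 size factors, 0.0769 by library size, 0.0156 with no filter, 0.00403 with the filter at 1 CPM, 0.000193 with the replicate block, 0.00848 with only the groups compared and 0.00945 with DESeq2. In combination against teriflunomide it was -0.0935 by library size, -0.0273 with no filter and -0.012 with DESeq2. ERCC5 after lurbinectedin was -0.195 by library size, -0.0421 with no filter and -0.00955 with DESeq2, and library size alone gave -0.118 for ERCC6 after lurbinectedin and 0.0575 for ERCC3 in combination against lurbinectedin.

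With libraries left out (1 at a time, or the 2 above), values after lurbinectedin ran from -0.188 to 0.161 for ERCC5. With teriflunomide they ran from -0.122 to 0.0314 for ERCC8, -0.236 to 0.0768 for ERCC1 and -0.24 to 0.108 for ERCC5. In combination against lurbinectedin they ran from -0.092 to 0.125 for ERCC8, -0.0784 to 0.107 for ERCC2, -0.158 to 0.0507 for ERCC3, -0.0822 to 0.0666 for ERCC1 and -0.0198 to 0.11 for ERCC4. In combination against teriflunomide they ran from -0.332 to 0.116 for XPA, -0.0276 to 0.243 for ERCC2 and -0.195 to 0.118 for ERCC1. For the interaction they ran from -0.0494 to 0.155 for ERCC8, -0.0766 to 0.142 for ERCC3 and -0.0694 to 0.235 for ERCC1.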
